A study of Mus musculus with 12 samples.

Results

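The nuclear receptors of stem cells were described here as a group of 10 genes, *Nr0b1*, *Nr5a2*, *Nr6a1*, *Esrra*, *Rara*, *Rarg*, *Rxra*, *Rxrb*, *Thra* and *Nr1h2*, chosen by symbol from a table of 50978 rows, in which all 10 were found once. Their mRNA was compared in 3 lines of E14 mouse embryonic stem cells (ESCs), all kept in 15% serum with the cytokine LIF. Parental ESCs were the wild-type E14 line. ESC + H/F-PRAMEL7WT carried an HA/FLAG-tagged *Pramel7* transgene behind the ubiquitous CAG promoter at the *Rosa26* locus, and ESC + H/F-PRAMEL7ΔN carried the same construct with 50 amino acids, according to the sample labels, deleted from the N-terminus. These lines are called PRAMEL7WT and PRAMEL7ΔN below. Both had been made with Cas9 and puromycin selection and grown from single cells, whereas parental ESCs had not passed through these steps, so that each derived line is 1 clone and the clone, its handling and the transgene cannot be told apart. Polyadenylated RNA was measured in 2 libraries per line from independent dishes, 6 in all, and p-values therefore measure the spread between dishes of a line. PRAMEL7 is a protein of preimplantation embryos that binds the ubiquitin ligase subunit CUL2 through its N-terminus, and the comparison of the lines asks which mRNAs differ when the complete or the truncated protein is made.

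Nuclear receptors are transcription factors with a DNA-binding domain of zinc fingers and a domain that can hold a small lipophilic ligand. Most bind the hexamer AGGTCA, singly or repeated. In ESCs the NR5A2 protein keeps the pluripotency gene *Pou5f1* active, NR6A1 silences it when cells differentiate, and NR0B1, which lacks the zinc fingers, binds other receptors and restrains them. ESRRA has no known natural hormone and works with PGC-1 coactivators on genes of mitochondrial energy metabolism. The receptors for retinoic acid (RARA, RARG), thyroid hormone (THRA) and oxysterols (NR1H2) bind DNA as partners of RXRA or RXRB.

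The promoters of 4 members are shown because their genes illustrate both directions of difference. *Nr0b1* and *Rarg* differed between the derived lines, *Nr6a1* was lower than in parental ESCs in each of them, and the study placed primers for chromatin immunoprecipitation upstream of *Esrra*. Each sequence runs 5′ to 3′ on the strand of the gene, from 250 bases before to 50 bases after a RefSeq start site (GRCm38.p6). Capitals mark AGGTCA or its reverse complement TGACCT.

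Nr0b1, chrX:86191525-86191824, plus strand: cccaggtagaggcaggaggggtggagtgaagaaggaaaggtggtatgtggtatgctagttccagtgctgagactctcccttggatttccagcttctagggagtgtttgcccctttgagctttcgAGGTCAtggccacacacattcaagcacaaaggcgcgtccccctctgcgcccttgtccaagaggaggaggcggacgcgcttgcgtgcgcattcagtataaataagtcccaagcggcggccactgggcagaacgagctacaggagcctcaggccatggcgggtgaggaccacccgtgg

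Rarg, chr15:102257473-102257772, minus strand: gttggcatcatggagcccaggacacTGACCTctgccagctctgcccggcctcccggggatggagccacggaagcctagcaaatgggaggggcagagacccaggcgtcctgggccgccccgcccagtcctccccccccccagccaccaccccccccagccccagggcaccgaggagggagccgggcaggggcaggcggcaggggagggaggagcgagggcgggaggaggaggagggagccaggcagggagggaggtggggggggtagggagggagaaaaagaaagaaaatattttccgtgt

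Esrra, chr19:6921759-6922058, minus strand: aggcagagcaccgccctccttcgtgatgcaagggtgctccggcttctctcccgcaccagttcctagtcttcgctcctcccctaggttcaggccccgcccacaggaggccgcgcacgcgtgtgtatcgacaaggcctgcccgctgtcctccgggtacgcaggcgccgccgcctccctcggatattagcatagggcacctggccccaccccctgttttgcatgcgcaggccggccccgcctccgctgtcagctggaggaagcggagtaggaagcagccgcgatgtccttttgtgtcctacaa

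Nr6a1, chr2:38926412-38926711, minus strand, the most upstream of its RefSeq start sites: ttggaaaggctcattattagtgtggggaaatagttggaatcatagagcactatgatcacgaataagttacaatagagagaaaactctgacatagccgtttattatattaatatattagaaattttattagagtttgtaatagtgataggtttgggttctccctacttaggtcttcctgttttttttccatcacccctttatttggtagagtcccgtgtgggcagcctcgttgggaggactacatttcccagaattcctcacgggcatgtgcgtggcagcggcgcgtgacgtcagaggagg

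Of these 4 windows, that of *Nr0b1* held 1 hexamer at position -126 from the start site and that of *Rarg* held 1 at -225, whereas those of *Esrra* and *Nr6a1* held none. Other start sites of the same genes differ, since a further *Nr6a1* window (chr2:38784466-38784765) held 2 hexamers and a further *Rarg* window (chr15:102246451-102246750) held none. RefSeq listed 17 such windows for 9 of the 10 members, with *Thra* unmatched, and some windows of a gene overlap. The hexamer was present on either strand in 6 of the 17 windows, against 16.3% of all 32851 windows. No window held the extended hexamer TCAAGGTCA, the letters that NR5A2 and ESRRA bind as monomers, which stood in 0.423% of all windows. The direct repeat AGGTCAAGGTCA bound by NR6A1 was likewise found in 0 of 17, against 0.00609%. Both longer motifs contain the hexamer and so overlap it. A GC box, GGGCGG on either strand, was present in 8 of 17 windows and in 35.7% of all. The 4 printed windows held 58.7% G and C for *Nr0b1*, 70.0% for *Rarg*, 66.0% for *Esrra* and 42.3% for *Nr6a1*, beside a median of 52.7% over all windows. The RNA data do not bear on whether any of these letters is bound.

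Upstream of the *Esrra* window lies the site that the study used to measure the chromatin remodeller CHD4. The forward primer gggcgttgaacgtgtatgtaaa and the reverse primer gttaggccccaccccttatg enclose 71 bases at chr19:6922100-6922170, 287 to 357 bases before the annotated gene start, shown here on the strand of *Esrra*.

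Esrra primer site: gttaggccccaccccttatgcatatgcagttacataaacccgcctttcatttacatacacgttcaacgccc

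The hexamer occurs 0 times in this stretch. The chromatin libraries were not analysed here.

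Reads on genes numbered between 18255538 and 19856576 per library. The deposited RPKM had been computed with the whole gene span, introns included, as length, and each value was multiplied by that length and a factor common to the 6 libraries. The result is called CPM of reads on genes here, although it keeps the authors' scaling between libraries and so departs slightly from a gene's share of its own library's reads. *Pramel7* had 5 and 4 reads in the parental libraries, 48.7 ± 3.49 CPM (SD, n = 2) in PRAMEL7WT and 414.3 ± 23.5 CPM (SD, n = 2) in PRAMEL7ΔN, so that the derived lines differed in the amount of transgene mRNA as well as in the N-terminus. The Pearson correlation of log2 values between libraries of a line was lowest in parental ESCs at 0.9903, against 0.9966 and 0.9952. All 10 markers of ESCs were measured, at a summed level of 5865 to 6842 CPM per library. Of 8 fibroblast markers, 6 were below 1 CPM in every library and 3 of these had no read, and the list summed to 41.9 to 55.6 CPM in parental ESCs, 21.1 to 22.4 in PRAMEL7WT and 38.8 to 43.7 in PRAMEL7ΔN, nearly all of it *Thy1*. Primitive endoderm markers summed to 7.11 to 10.5 CPM in parental ESCs, 11.8 to 13.4 in PRAMEL7WT and 9.77 to 10.5 in PRAMEL7ΔN. Of 5 tested, 2 were called higher and 1 lower in PRAMEL7WT, and 1 higher and 1 lower in PRAMEL7ΔN, over parental ESCs. Among all tested genes 8.71% were higher and 16.3% lower in PRAMEL7WT, and 6.25% and 13.6% in PRAMEL7ΔN. Trophoblast markers summed to 67.8 to 103.8 CPM in parental ESCs, 74.4 to 80.3 in PRAMEL7WT and 43.5 to 45.4 in PRAMEL7ΔN. The sum was lowest in PRAMEL7ΔN, although 2 of 4 tested markers were called higher there and 1 lower than in parental ESCs. The median log2 fold change of the 4 was 0.17 there, and in PRAMEL7WT 0 were called. The neural list summed to 195.7 to 202.5, 269.5 to 272.8 and 166.7 to 190.1 CPM in parental ESCs, PRAMEL7WT and PRAMEL7ΔN. Mesoderm markers summed to 1.82 to 3.40 CPM over the 6 libraries. The part of such differences in the receptor values was not tested, and in bulk RNA fewer cells of a type and less RNA per cell cannot be told apart.

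Per kilobase of exon, parental ESCs had most mRNA of *Nr0b1* and *Nr5a2* and least of *Thra*, with *Nr6a1* at rank 8 of 10. *Nr0b1* led with 38.1 CPM per kb, at percentile 88.4 of 12100 coding genes above the expression limit. *Nr5a2* had 27.9 and *Rara* 24.8 CPM per kb, and the libraries of these 2 genes overlapped. *Rarg* at 16.4, *Rxrb* at 14.5 and *Nr1h2* at 11.8 CPM per kb formed the middle of the order, each overlapping its neighbour. *Rxra* had 7.38 and *Nr6a1* 6.23 CPM per kb, with no overlap between them. *Esrra* at 3.47 and *Thra* at 2.62 CPM per kb overlapped at the lower end, and *Thra* stood at percentile 32.8.

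**Figure D1:**
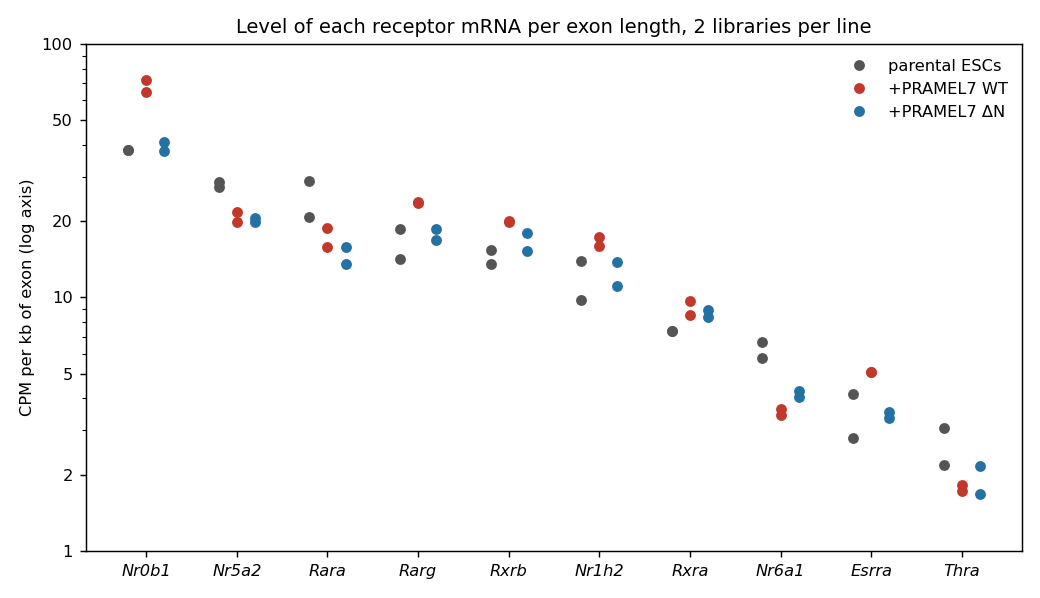
Level of the 10 receptor mRNAs in CPM per kilobase of exon on a log axis, with 2 libraries per line as points and genes ordered by the mean in parental ESCs. The parental order runs from *Nr0b1* at 38.1 to *Thra* at 2.62 CPM per kb, and *Nr0b1* stands above all others in every line.

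In PRAMEL7WT 7 of the 10 receptors differed from parental ESCs, where 25% of all tested genes did, and in PRAMEL7ΔN 3 of 10, where 19.9% did. Higher in PRAMEL7WT were *Nr0b1*, *Rarg*, *Rxrb* and *Esrra*, 4 of 10 members, where 8.71% of the 12914 tested genes were higher. Lower were *Nr6a1*, *Nr5a2* and *Rara*, 3 of 10 where 16.3% of genes were lower. In PRAMEL7ΔN, *Rara*, *Nr6a1* and *Nr5a2* were lower, 3 of 10 where 13.6% of genes were lower. No member was higher there by limma, and the count was also 0 at an unadjusted p under 0.05 and 0 by voom, where 6.25% of genes were higher. These calls use limma on log2(CPM + 1) with all 6 libraries in one fit and an adjusted p under 0.05. Both comparisons use the same parental libraries.

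The median log2 fold change of the 10 members was 0.38 in PRAMEL7WT over parental ESCs, beside -0.08 over all tested genes, and 0.03 in PRAMEL7ΔN over parental ESCs, beside -0.06. All 10 members passed the expression limit. In PRAMEL7WT both libraries lay above both parental ones for 6 members and below for 4, so that no member overlapped, where 24.3% of all genes lay above and 40% below. In PRAMEL7ΔN 1 member lay above and 4 below, against 21.6% and 35.4% of genes. With a limit of 0.58 on the absolute log2 fold change added, only *Nr0b1* remained among the higher and *Nr6a1* among the lower members in PRAMEL7WT, against 4.07% and 8.41% of genes, and only *Rara* among the lower in PRAMEL7ΔN, against 8.41% of genes there. In PRAMEL7ΔN 0 members were higher with that limit, against 2.87%.

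Compared directly, PRAMEL7WT had more *Nr0b1* and *Rarg* mRNA than PRAMEL7ΔN. These were 2 called of 10, where 20.4% of genes were called in either direction and 10.9% were higher. No member was lower by limma, with 0 at an unadjusted p under 0.05 and 0 by voom, where 9.44% of genes were lower. With the fold limit only *Nr0b1* remained, where 6.63% of genes were higher and 4.72% lower. The libraries did not overlap for 7 members, 6 higher and 1 lower in PRAMEL7WT, beside 33.2% and 35.6% of genes. The median difference over the members was 0.25 on the log2 scale, against -0.02 over all genes. Leaving out parental library 1 or 2 alters only the estimate of the spread here, and the log2 fold changes stayed the same. They were 0.53 for *Esrra*, 0.41 for *Nr1h2*, 0.27 for *Rxrb* and -0.23 for *Nr6a1*, none of them called with all 6 libraries. With only the 2 derived lines fitted, *Esrra*, *Nr1h2* and *Rxrb* were called as well, and *Nr6a1* was not. In fits with 1 library left out the number of calls moved for members and for all genes, as given below.

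**Figure D2:**
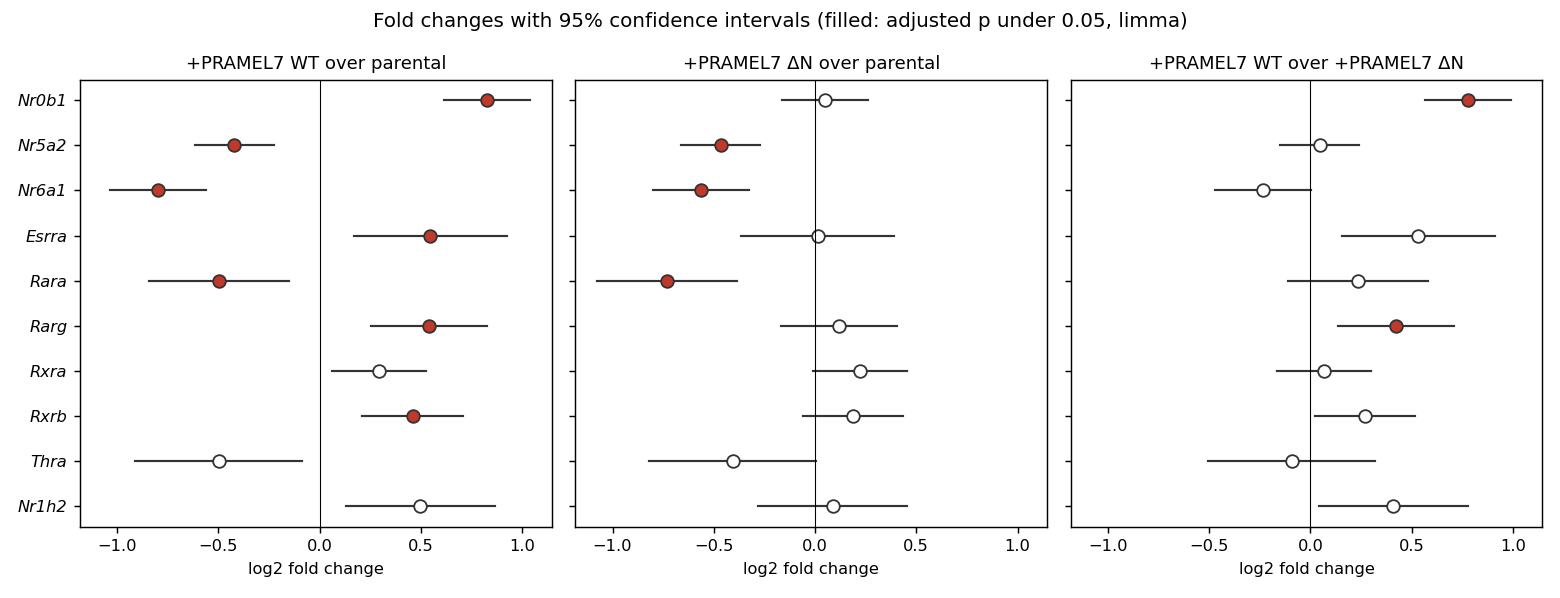
Log2 fold change of each receptor in 3 comparisons (x axis), as points with 95% confidence intervals from limma and filled where the adjusted p was under 0.05. Of 10 members 7 are filled for PRAMEL7WT over parental ESCs, 3 for PRAMEL7ΔN over parental ESCs and 2 for PRAMEL7WT over PRAMEL7ΔN.

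*Nr0b1* (chromosome X, 86191764 to 86195947, mm10) encodes DAX1, the receptor without zinc fingers that restrains other receptors. It measured 68.9 and 68.9 CPM in the parental libraries, 116.5 and 130.1 CPM in PRAMEL7WT, and 74.1 and 68.6 CPM in PRAMEL7ΔN. Both PRAMEL7WT libraries stood well above the other 4, which lay together. The log2 fold change was 0.83 in PRAMEL7WT over parental ESCs (standard error 0.09, adjusted p = 0.000991) and 0.78 over PRAMEL7ΔN (adjusted p = 0.0007). For PRAMEL7ΔN over parental ESCs it was 0.05 (adjusted p = 0.766), with a 95% confidence interval from -0.16 to 0.26. *Nr0b1* was called in PRAMEL7WT over parental ESCs in all 18 alternatives tried, with adjusted p-values up to 0.0247.

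*Nr5a2* (chromosome 1, 136842571 to 136960448), the receptor known as LRH-1, had the most reads of the 10 in parental ESCs. Its level was 168.1 and 161.5 CPM in the parental libraries, 128.7 and 117.2 CPM in PRAMEL7WT, and 116.8 and 121.2 CPM in PRAMEL7ΔN. All 4 libraries of the derived lines were below both parental ones and overlapped with each other. Over parental ESCs the log2 fold change was -0.42 in PRAMEL7WT (standard error 0.09, adjusted p = 0.00907) and -0.47 in PRAMEL7ΔN (standard error 0.09, adjusted p = 0.00593). PRAMEL7WT over PRAMEL7ΔN gave 0.05, with a 95% confidence interval from -0.15 to 0.24. With either PRAMEL7WT library left out the adjusted p in that line was 0.0554 or 0.115, and without PRAMEL7ΔN library 1 it was 0.0679 in PRAMEL7ΔN.

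*Nr6a1* (chromosome 2, 38723370 to 38927688) encodes GCNF, which silences *Pou5f1* during differentiation. Its mRNA was at 62.6 and 72.2 CPM in parental ESCs, 39.4 and 37.1 CPM in PRAMEL7WT, and 43.9 and 46.4 CPM in PRAMEL7ΔN. The 3 lines did not overlap, with parental ESCs highest and PRAMEL7WT lowest. It changed by a log2 fold change of -0.80 in PRAMEL7WT (standard error 0.11, adjusted p = 0.00157) and -0.56 in PRAMEL7ΔN (standard error 0.11, adjusted p = 0.00598), each over parental ESCs. The derived lines differed by -0.23, PRAMEL7WT over PRAMEL7ΔN, which missed the threshold (adjusted p = 0.147) with a 95% confidence interval from -0.47 to 0.004. The call in PRAMEL7WT held in all 17 alternatives, and that in PRAMEL7ΔN was lost without PRAMEL7ΔN library 1 (adjusted p = 0.0682). Within the *Nr6a1* span lie 29114 bases of the antisense gene *Nr6a1os*, which is listed at 0 in all 6 libraries, but the kit does not mark strand and reads of both genes cannot be told apart.

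**Figure D3:**
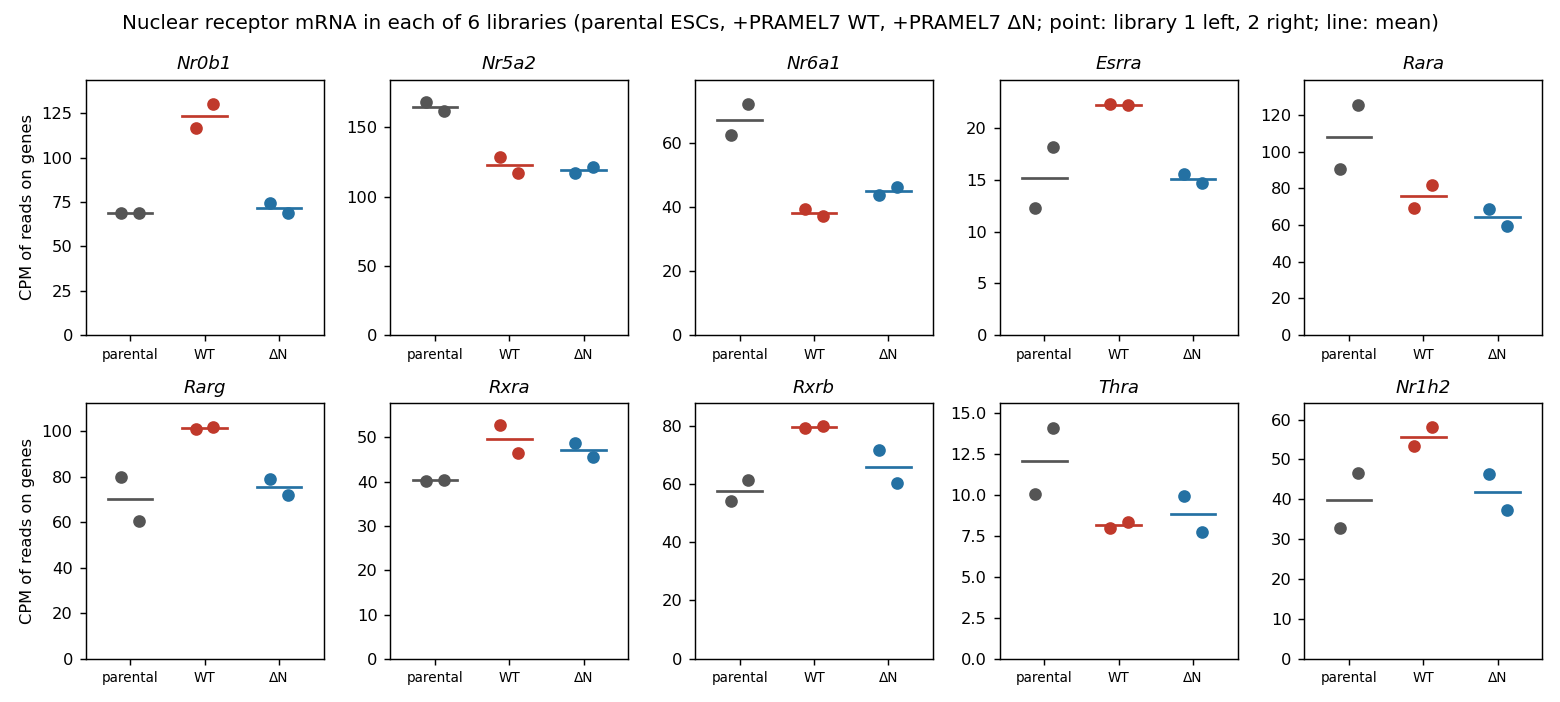
CPM of reads on genes for each receptor in the 6 libraries, with points for the libraries of parental ESCs, PRAMEL7WT (WT) and PRAMEL7ΔN (ΔN), a line for the mean and every y axis starting at 0. *Nr0b1* reaches 116.5 and 130.1 CPM in PRAMEL7WT only, and *Nr5a2* and *Nr6a1* are below parental ESCs in both derived lines. The 2 parental points of *Esrra*, *Rara*, *Rarg*, *Thra* and *Nr1h2* lie far apart.

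*Esrra* (chromosome 19, 6910977 to 6921813), the estrogen-related receptor of energy metabolism, measured 12.3 and 18.2 CPM in parental ESCs, 22.4 and 22.2 CPM in PRAMEL7WT, and 15.6 and 14.7 CPM in PRAMEL7ΔN. Both PRAMEL7WT libraries were above the other 4, and the PRAMEL7ΔN libraries fell between the 2 parental ones. The parental libraries differed by 1.48-fold, whereas those of PRAMEL7WT differed by 1.01-fold. In PRAMEL7WT over parental ESCs the log2 fold change was 0.55 (standard error 0.17, adjusted p = 0.0413). Over PRAMEL7ΔN it was 0.53, just short of the threshold (adjusted p = 0.0519), with a 95% confidence interval from 0.15 to 0.91. This difference passed the threshold with median-ratio scaling, with quantile normalization and with only the 2 derived lines fitted. PRAMEL7ΔN over parental ESCs gave 0.01, with an interval from -0.36 to 0.39.

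The *Esrra* call in PRAMEL7WT depended on the libraries. It was lost in 9 of 17 alternatives, and its log2 fold change was 0.28 without parental library 1 (adjusted p = 0.125) and 0.81 without parental library 2 (adjusted p = 0.000419). Leaving out either PRAMEL7WT library gave adjusted p = 0.185 or 0.178, and leaving out either PRAMEL7ΔN library gave 0.0709 or 0.0706. *Esrra* shares 73 bases with *Trmt112* on the other strand, a gene for a methyltransferase cofactor, which measured 22.0 and 29.8 CPM in parental ESCs and 34.6 and 40.5 CPM in PRAMEL7WT. *Trmt112* was also higher in PRAMEL7WT over parental ESCs (log2 fold change 0.53, adjusted p = 0.0352), and reads in the shared bases cannot be told apart.

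**Figure D4:**
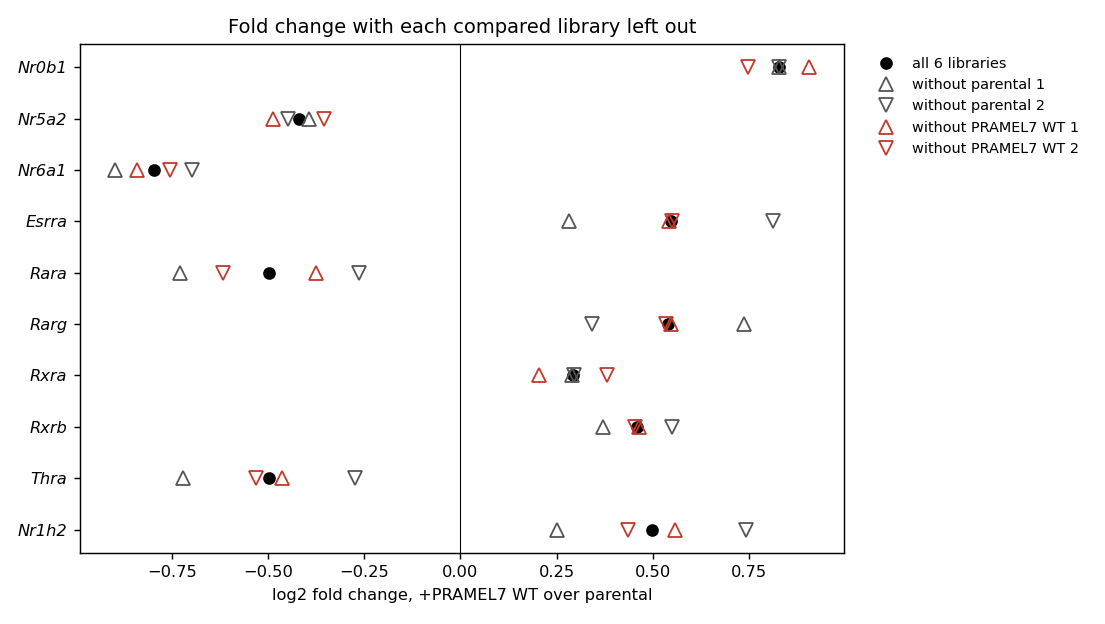
Log2 fold change of each receptor in PRAMEL7WT over parental ESCs (x axis) with all 6 libraries (black points) and with 1 of the 4 compared libraries left out (triangles). No value crosses 0. Leaving out a parental library moves *Esrra* between 0.28 and 0.81, *Nr1h2* between 0.25 and 0.74 and *Rarg* between 0.34 and 0.74. *Rara* moves between -0.73 and -0.26 and *Thra* between -0.72 and -0.27.

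The 2 retinoic acid receptors went in opposite directions in PRAMEL7WT. *Rarg* (chromosome 15, 102234938 to 102257517) encodes the receptor gamma, and its mRNA was at 79.7 and 60.4 CPM in parental ESCs, 100.9 and 101.8 CPM in PRAMEL7WT, and 79.0 and 71.8 CPM in PRAMEL7ΔN. PRAMEL7WT stood above the other lines, which overlapped, and the parental libraries differed by 1.32-fold. In PRAMEL7WT the log2 fold change was 0.54 over parental ESCs (standard error 0.13, adjusted p = 0.0151) and 0.42 over PRAMEL7ΔN (standard error 0.13, adjusted p = 0.0434). In PRAMEL7ΔN over parental ESCs it was 0.12, with a 95% confidence interval from -0.17 to 0.40, and it was 0.31 without parental library 1 (adjusted p = 0.0209) and -0.08 without parental library 2. The value in PRAMEL7WT over parental ESCs was 0.74 without parental library 1 and 0.34 without parental library 2, and it kept its call. This call was lost without PRAMEL7WT library 1 or 2. The call over PRAMEL7ΔN was lost in 6 of 17 alternatives, among them leaving out any 1 library of the derived lines (adjusted p from 0.102 to 0.267).

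*Rara* (chromosome 11, 98927818 to 98974942), the receptor alpha, measured 90.8 and 125.6 CPM in parental ESCs, 69.2 and 82.0 CPM in PRAMEL7WT, and 69.0 and 59.3 CPM in PRAMEL7ΔN. All libraries of the derived lines were below both parental ones, which differed by 1.38-fold. Over parental ESCs the log2 fold change was -0.73 in PRAMEL7ΔN (standard error 0.15, adjusted p = 0.0105) and -0.50 in PRAMEL7WT (standard error 0.15, adjusted p = 0.0422). Both PRAMEL7ΔN libraries were just below those of PRAMEL7WT, and the difference of 0.23, PRAMEL7WT over PRAMEL7ΔN, missed the threshold (adjusted p = 0.311, interval from -0.11 to 0.58). In PRAMEL7WT the call was lost in 11 of 17 alternatives, median-ratio scaling and quantile normalization included, and the value was -0.26 without parental library 2 (adjusted p = 0.089). It was also lost without PRAMEL7WT library 1 or 2 (adjusted p = 0.268 and 0.0982) and without PRAMEL7ΔN library 1 or 2 (adjusted p = 0.0654 and 0.0653). In PRAMEL7ΔN the call was lost without PRAMEL7ΔN library 2 (adjusted p = 0.0973) and without the expression limit, and the value was -0.50 without parental library 2.

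The RXR genes encode the partners that retinoic acid, thyroid hormone and oxysterol receptors need on DNA. *Rxrb* (chromosome 17, 34031812 to 34038399) had 54.0 and 61.3 CPM in parental ESCs, 79.2 and 79.8 CPM in PRAMEL7WT, and 71.5 and 60.4 CPM in PRAMEL7ΔN. The PRAMEL7WT libraries were the highest of the 6, and those of the other lines overlapped. The log2 fold change in PRAMEL7WT over parental ESCs was 0.46 (standard error 0.11, adjusted p = 0.0163), and it was 0.19 in PRAMEL7ΔN (adjusted p = 0.271, interval from -0.06 to 0.44). The difference between the derived lines was 0.27, PRAMEL7WT over PRAMEL7ΔN (adjusted p = 0.114, interval from 0.02 to 0.52). Without PRAMEL7WT library 1 or 2 the call over parental ESCs was lost (adjusted p = 0.114 and 0.118).

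*Rxra* (chromosome 2, 27676440 to 27762957) had 40.2 and 40.4 CPM in parental ESCs, 52.8 and 46.6 CPM in PRAMEL7WT, and 48.8 and 45.7 CPM in PRAMEL7ΔN. Every library of the derived lines was above both parental ones, and the derived lines overlapped. Neither difference passed the test, with a log2 fold change of 0.29 in PRAMEL7WT (standard error 0.10, adjusted p = 0.0653) and 0.22 in PRAMEL7ΔN (standard error 0.10, adjusted p = 0.168). Median-ratio scaling and quantile normalization brought *Rxra* and *Nr1h2* past the threshold in PRAMEL7WT over parental ESCs.

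*Nr1h2* (chromosome 7, 44549616 to 44553951) encodes the liver X receptor beta, which senses oxysterols. It had 32.8 and 46.6 CPM in parental ESCs, 53.3 and 58.0 CPM in PRAMEL7WT, and 46.3 and 37.4 CPM in PRAMEL7ΔN. PRAMEL7WT was above the other lines, and PRAMEL7ΔN lay within the parental range. The log2 fold change in PRAMEL7WT over parental ESCs was 0.50 and missed the threshold (standard error 0.16, adjusted p = 0.0522), with a value of 0.74 without parental library 2 (adjusted p = 0.000345) and 0.25 without parental library 1 (adjusted p = 0.129). Over PRAMEL7ΔN it was 0.41 (adjusted p = 0.107, interval from 0.04 to 0.78).

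*Thra* (chromosome 11, 98740638 to 98769006), the thyroid hormone receptor alpha, was the least abundant member. It measured 10.1 and 14.1 CPM in parental ESCs, 7.95 and 8.37 CPM in PRAMEL7WT, and 9.94 and 7.71 CPM in PRAMEL7ΔN. The libraries of both derived lines were below the parental ones, with a gap of less than 1 CPM between PRAMEL7ΔN and the lower parental library. The log2 fold change was -0.50 in PRAMEL7WT (adjusted p = 0.0741) and -0.41 in PRAMEL7ΔN (adjusted p = 0.158), and neither passed the test. Without parental library 1 these were -0.72 (adjusted p = 0.00521) and -0.63 (adjusted p = 0.0118). The 3′ end of *Thra* shares 1075 bases with *Nr1d1* on the other strand, the gene of the clock repressor REV-ERB alpha, which fell in PRAMEL7WT (log2 fold change -0.55, adjusted p = 0.0235), and their reads in these bases cannot be told apart.

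*Rara* and *Thra* lie on chromosome 11, where many genes were lower in both derived lines. The median log2 fold change of 1101 other tested genes on this chromosome was -0.36 in PRAMEL7WT and -0.33 in PRAMEL7ΔN over parental ESCs, and 45.8% and 39.2% of them were called lower. Relative to these medians *Rara* was at -0.14 in PRAMEL7WT and -0.40 in PRAMEL7ΔN, and *Thra* at -0.14 and -0.08. On chromosome X, which holds *Nr0b1*, the medians were -0.17 and -0.17, so that *Nr0b1* stood 0.99 above the chromosome median in PRAMEL7WT and 0.22 above it in PRAMEL7ΔN. For the other members the chromosome medians lay between -0.06 and 0.03 in both comparisons. The part of the chromosome was not tested for *Rara* and *Thra*, nor for *Nr1d1*, *Med1* and *Fasn*, which also lie on chromosome 11. The subtraction was chosen after seeing the data.

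**Figure D5:**
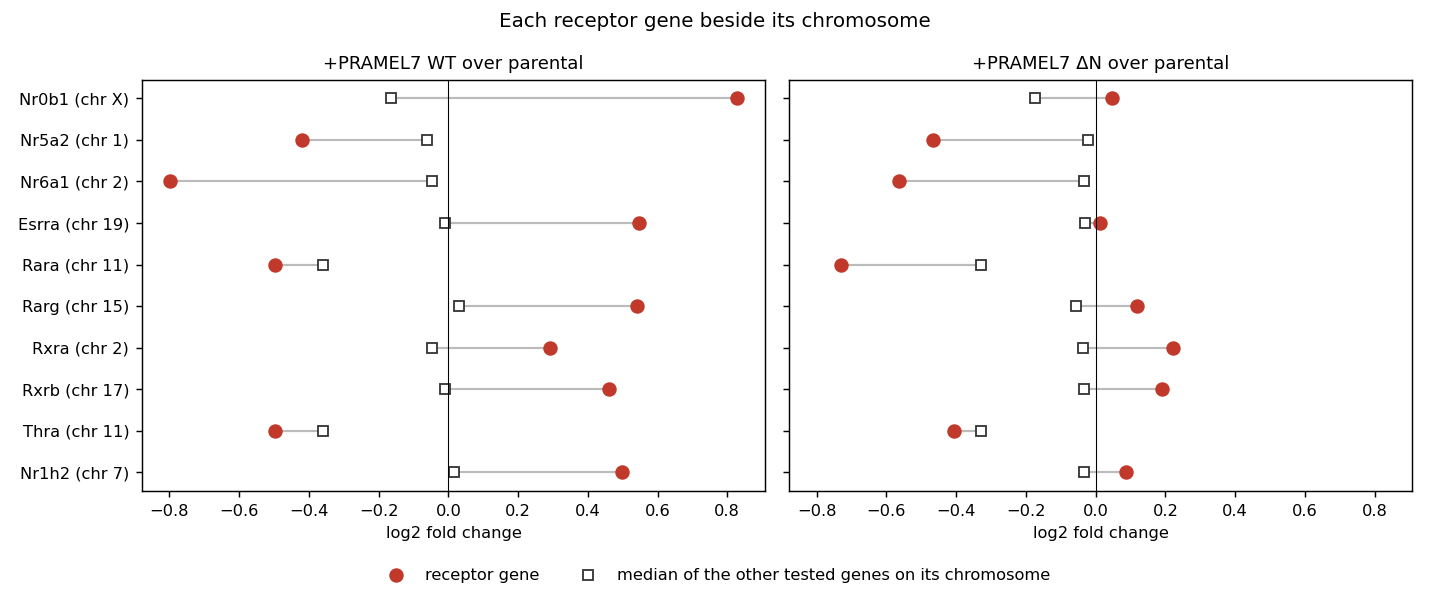
Log2 fold change over parental ESCs (x axis) of each receptor (filled circles) and median of the other tested genes on its chromosome (open squares) in PRAMEL7WT and PRAMEL7ΔN. On chromosome 11 the medians are -0.36 and -0.33 and 45.8% and 39.2% of the genes were called lower, and the medians of the chromosomes of the other members lie between -0.17 and 0.03.

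The receptors' partners and targets were counted in lists of related genes. The counts stand beside shares over all tested genes of 8.71% higher and 16.3% lower in PRAMEL7WT over parental ESCs. These shares were 6.25% and 13.6% in PRAMEL7ΔN over parental ESCs, and 10.9% and 9.44% for PRAMEL7WT over PRAMEL7ΔN. No test over a list was run. Among 39 other nuclear receptors 12 were above the expression limit and 26 were below 1 CPM in every library, 4 of them without a read. In PRAMEL7WT over parental ESCs 2 of the 12 were higher and 3 lower, and in PRAMEL7ΔN 1 was higher and 2 lower, with list medians of -0.09 and -0.02 on the log2 scale. *Nr4a1*, an immediate early gene, was higher in PRAMEL7WT (179.3 and 195.0 CPM) and PRAMEL7ΔN (202.2 and 194.2 CPM) than in parental ESCs (131.9 and 146.4 CPM), with log2 fold changes of 0.43 (adjusted p = 0.0102) and 0.51 (adjusted p = 0.00479). *Nr2c2*, which encodes the orphan receptor TR4, was lower in both lines, at -0.79 (adjusted p = 0.00806) and -0.60 (adjusted p = 0.0267). *Nr1d2*, the clock repressor REV-ERB beta, was lower in PRAMEL7WT at -0.69 (adjusted p = 0.0158). *Hnf4a*, a receptor of liver and visceral endoderm at about 1 CPM in parental ESCs, had 0 and 1 reads in the PRAMEL7ΔN libraries, below the parental values (adjusted p = 0.00678).

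In the list of retinoid metabolism and transport, 11 of 17 genes were tested. Over parental ESCs 5 were lower and 1 higher in PRAMEL7WT, and 3 were lower and 1 higher in PRAMEL7ΔN, with list medians of -0.10 and -0.20 on the log2 scale. *Crabp1*, which binds retinoic acid in the cytoplasm, measured 76.9 and 89.4 CPM in parental ESCs, 34.4 and 40.5 CPM in PRAMEL7WT, and 67.0 and 58.6 CPM in PRAMEL7ΔN. It fell by 1.13 on the log2 scale in PRAMEL7WT (adjusted p = 0.000833) and by 0.40 in PRAMEL7ΔN (adjusted p = 0.047). *Crabp2*, which carries retinoic acid to its receptors, fell by 0.99 in PRAMEL7WT from 4.34 and 5.21 CPM (adjusted p = 0.00417). *Fabp5*, a fatty acid binding protein, fell by 0.41 (adjusted p = 0.0182) and by 0.84 (adjusted p = 0.000772) in the 2 lines. *Aldh1a3*, an enzyme that makes retinoic acid, was higher in PRAMEL7ΔN with 4.87 and 4.91 CPM against 0.619 and 1.74 CPM in parental ESCs (log2 fold change 1.48, adjusted p = 0.00308).

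Among targets of the retinoic acid receptors, 8 of 14 genes were tested. In PRAMEL7WT 1 was lower, *Crabp2*, and none higher by limma, with 2 higher at an unadjusted p under 0.05 and 0 by voom. In PRAMEL7ΔN 2 were higher and none lower, with 2 lower at an unadjusted p under 0.05 and 0 by voom. *Tgm2*, a transglutaminase, was among the higher genes, with 21.1 and 20.9 CPM against 7.79 and 9.82 CPM in parental ESCs (log2 fold change 1.18, adjusted p = 0.000814). The list medians were 0.05 in PRAMEL7WT and 0.30 in PRAMEL7ΔN. In the direct comparison 3 of 8 were lower in PRAMEL7WT than in PRAMEL7ΔN. The strongly inducible targets *Cyp26a1*, *Rarb* and *Hoxb1* were below 1 CPM in every library.

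Targets of the liver X receptors did not share a direction. Of 10 tested genes in a list of 13, 3 were lower and 1 higher in each derived line over parental ESCs, with list medians of -0.20 in PRAMEL7WT and -0.24 in PRAMEL7ΔN. *Abca1*, the cholesterol exporter, measured 20.3 and 15.7 CPM in parental ESCs, 8.91 and 8.20 CPM in PRAMEL7WT, and 48.9 and 45.3 CPM in PRAMEL7ΔN. The 3 lines were far apart, PRAMEL7WT lowest and PRAMEL7ΔN highest. Its log2 fold change was -0.98 in PRAMEL7WT (adjusted p = 0.00222), 1.35 in PRAMEL7ΔN (adjusted p = 0.000378) and -2.33 for PRAMEL7WT over PRAMEL7ΔN (adjusted p = 1.55e-05). *Lpcat3*, a phospholipid enzyme, fell in PRAMEL7WT by 0.57 (adjusted p = 0.00343). *Scd2*, a fatty acid desaturase, fell by 0.47 (adjusted p = 0.00409) and by 0.57 (adjusted p = 0.00155) in the 2 lines, and *Fasn*, the fatty acid synthase, fell by 0.53 in PRAMEL7ΔN (adjusted p = 0.00594). *Fasn* lies on chromosome 11, whose median was -0.33 in PRAMEL7ΔN over parental ESCs, and the part of the chromosome was not tested.

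Thyroid hormone receptor targets gave 1 call. Of 8 tested genes in a list of 11, none was called in PRAMEL7WT by limma or by voom, with 1 higher and 2 lower at an unadjusted p under 0.05. In PRAMEL7ΔN the transporter gene *Slc16a10* fell by 0.91 on the log2 scale (adjusted p = 0.011), from 4.23 and 5.42 CPM to 2.26 and 1.90 CPM. No target was higher there by limma, by voom or at an unadjusted p under 0.05, with a count of 0 for each. The list medians were 0.01 and -0.11.

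Of the coactivators and mitochondrial targets of ESRRA, 15 of 17 were tested, while the coactivator *Ppargc1a* was below 1 CPM in every library. In PRAMEL7WT 3 of the 15 were higher and none lower by limma, with 1 lower at an unadjusted p under 0.05 and 0 by voom, and in PRAMEL7ΔN 1 was higher and 1 lower. The list medians were 0.15 and 0.03. *Ppargc1b*, the related coactivator, measured 4.54 and 3.96 CPM in parental ESCs, 9.82 and 7.54 CPM in PRAMEL7WT, and 3.71 and 2.85 CPM in PRAMEL7ΔN. It was higher in PRAMEL7WT than in parental ESCs (log2 fold change 0.88, adjusted p = 0.00936) and than in PRAMEL7ΔN (1.17, adjusted p = 0.00243). *Slc25a4*, the mitochondrial ADP/ATP carrier, was lower in PRAMEL7ΔN than in parental ESCs (-0.75, adjusted p = 0.00355). *Cycs*, which encodes cytochrome c, was higher there (0.41, adjusted p = 0.0197), and *Pdk4*, a kinase that slows pyruvate oxidation, was lower in PRAMEL7WT than in PRAMEL7ΔN (-0.70, adjusted p = 0.00808).

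Of the genes known as targets of NR5A2 and NR6A1 in stem cells 9 of 11 were tested, *Nr0b1* itself among them. In PRAMEL7WT 4 were higher and 3 lower than in PRAMEL7ΔN. Over parental ESCs 1 was higher and 3 lower in PRAMEL7WT, and 1 was lower and none higher in PRAMEL7ΔN by limma, with 0 higher at an unadjusted p under 0.05 and 0 by voom. The list medians over parental ESCs were 0.03 and 0.07. *Klf2*, a pluripotency factor, measured 148.2 and 182.4 CPM in parental ESCs, 155.8 and 181.6 CPM in PRAMEL7WT, and 68.0 and 61.0 CPM in PRAMEL7ΔN, where it fell by 1.34 on the log2 scale (adjusted p = 0.000168). *Klf4* and *Nanog*, also pluripotency factors, fell in PRAMEL7WT over parental ESCs by 0.66 (adjusted p = 0.0118) and by 0.36 (adjusted p = 0.0178).

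All 22 coregulators of nuclear receptors in the list were tested. In PRAMEL7WT 2 were higher and 3 lower, and in PRAMEL7ΔN 1 was higher and 3 lower. *Med1*, the Mediator subunit that receptors contact, measured 101.5 and 108.8 CPM in parental ESCs, 59.9 and 60.6 CPM in PRAMEL7WT, and 82.0 and 78.6 CPM in PRAMEL7ΔN. It fell in both lines, by 0.79 (adjusted p = 0.000948) and by 0.39 (adjusted p = 0.0148), and PRAMEL7WT was below PRAMEL7ΔN (-0.41, adjusted p = 0.0121). *Med1* lies on chromosome 11, where the median log2 fold change was -0.36 in PRAMEL7WT and -0.33 in PRAMEL7ΔN over parental ESCs. The part of the chromosome in the values of *Med1* was not tested. *Prmt1*, an arginine methyltransferase, was higher in PRAMEL7WT (0.52, adjusted p = 0.00373), and *Trim24*, which binds retinoic acid receptors, was higher in PRAMEL7ΔN (0.37, adjusted p = 0.016). The median log2 fold change of the list was -0.06 in PRAMEL7WT and -0.12 in PRAMEL7ΔN, beside -0.08 and -0.06 over all genes.

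For each called receptor the most similar expression pattern over the 6 libraries was sought among 8559 genes with a mean of at least 10 CPM. *Nr0b1* was closest to *Baiap2*, *Emc8* and *Fis1*, with Pearson r of 0.9974, 0.9966 and 0.9958. *Nr6a1* was closest to *Cep68*, *Eif4enif1* and *Sptbn1* (0.9991, 0.9968 and 0.9927), and *Nr5a2* to *Ankib1*, *Clcn5* and *Cyp20a1* (0.9965, 0.9955 and 0.9947). *Esrra* followed *Lman2*, *Plin3* and *Ptprf* (0.9978, 0.9953 and 0.9943), *Rxrb* followed *Sik3*, *Jup* and *Tln1* (0.9949, 0.9944 and 0.9928), *Rara* followed *Pgghg*, *Cdk11b* and *Tmem11* (0.9942, 0.9938 and 0.9929), and *Rarg* followed *Mrps27*, *Pmm2* and *Akr1a1* (0.9938, 0.9835 and 0.9823). High values are common with 6 libraries in 3 lines, and between 49 and 229 genes were above 0.95 for a member. These points share libraries and depth, and the ranking is a description.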

How the data were processed

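RNA of 6 libraries, 2 per line, was sequenced from poly A enriched RNA with a kit that does not mark strand. The authors removed ribosomal reads, trimmed and mapped to mm10 with STAR and deposited RPKM values from their own pipeline per the methods, whereas the submitters' processing notes name Bowtie2 2.3.4.3 and Subread 1.4.6-p4. The methods state triplicates for RNA-seq, and 2 libraries per line were analysed. The results section of the study and the labels give different lengths for the N-terminal deletion, and that of the labels is used. The authors' tables of comparisons (mean, log2 fold change, standard error, Wald score, p-values, in one table also log10 values) were deposited and not used. The 6 chromatin libraries were not analysed here.

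The table held 50978 rows, of which 47940 were used. Repeated names or names that had become dates removed 176 rows, and GENCODE vM21 gave no entry for 2796 and more than 1 entry for 66. RPKM multiplied by the gene span, introns included, gave whole reads within 0.1 for 98.09 to 98.38% of values up to 20 reads, against 40.14 to 41.81% with exon length. Values were converted to CPM with one constant, so the authors' scaling between libraries was kept. This conversion departs from a test on RPKM as such, which was run as an alternative. Precision follows from 18255538 to 19856576 reads per library and from 2 dishes per line.

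A gene was tested when 2 or more libraries exceeded 1 CPM, which 12914 genes did. Testing used log2(CPM + 1) in limma 3.58.1 (R 4.3.3) with a mean-variance trend, a single fit of the 3 lines and the Benjamini-Hochberg method over all tested genes. Fold changes on this scale understate those of low genes. The voom alternative used reads rounded to whole numbers. The script was tested on simulated data. Figures used python 3.11.15 and matplotlib 3.10.9.

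Named were all 10 members, from each list of related genes at most 4 called genes with the lowest adjusted p, for each called member the 3 genes with the highest Pearson r, and genes overlapping a member. One gene named by this rule was left out of the text. *Trmt112* and *Nr1d1* are such overlapping genes. *Ppargc1a*, *Cyp26a1*, *Rarb* and *Hoxb1* were named after their values were seen. Members and lists were chosen with earlier results of these data known.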

Additional observations from a re-analysis of the deposited data

Results flagged for a closer look

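Of the 10 receptors, 2 differed between the derived lines in the direct test, a share no larger than the 20.4% of all tested genes called in this comparison. *Nr0b1* differed by 0.78 on the log2 scale, PRAMEL7WT over PRAMEL7ΔN (adjusted p = 0.0007 from limma), where both PRAMEL7WT libraries were above both PRAMEL7ΔN libraries. *Rarg* differed by 0.42 (adjusted p = 0.0434 from limma), with the same separation. *Pramel7* mRNA was lower in PRAMEL7WT than in PRAMEL7ΔN by 3.06 on the log2 scale, so that the amount of transgene mRNA and the N-terminal deletion cannot be told apart. No group had the 4 libraries that a test for a single outlying library needs.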

How the results depend on the processing

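With 2 libraries per line, single calls depended on the setting more than directions did. Members called in PRAMEL7WT over parental ESCs numbered 7, and 3 without the expression limit, 2 with RPKM as deposited, which left 3 members to test, and 2 with a limit of 0.58 on the log2 fold change at an adjusted or 2 at an unadjusted p under 0.05. In PRAMEL7ΔN they numbered 3, and 0 with RPKM, 1 with the fold limit and 1 with it at an unadjusted p. Between the derived lines they numbered 2, and 1 without the expression limit, 1 with RPKM, 1 without trend, 1 with either fold limit and 5 with only the 2 lines fitted. Leaving out 1 library gave 2 to 7, 1 to 5 and 1 to 6 members, where a lone library was assumed to vary like the others.

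Genes called, 3234, 2566 and 2628 in the order above, became 1896, 1695 and 1427 without the expression limit, 361, 271 and 257 with RPKM, and 1612, 1456 and 1465 with the fold limit (1763, 1590 and 1605 at an unadjusted p). With only the 2 lines fitted PRAMEL7ΔN over parental ESCs gave 1700 and the derived lines 4647. Leaving out 1 library gave 706 to 4374, 838 to 4282 and 712 to 4648 genes. Median-ratio scaling turned 1125 higher and 2109 lower genes in PRAMEL7WT into 1645 and 1517, and 807 and 1759 in PRAMEL7ΔN into 1098 and 1389. Quantile normalization gave 1508 and 1541, and 1075 and 1228. The causes of these shifts were not tested.

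Directions turned only when a library was left out, among values that had not passed the test. For PRAMEL7ΔN over parental ESCs the log2 fold change ranged over these fits from -0.2507 (without parental library 1) to 0.2788 for *Esrra*, which also gave -0.0255 without PRAMEL7ΔN library 1. The range was -0.1592 (without parental library 1) to 0.3337 for *Nr1h2*, with -0.0639 without PRAMEL7ΔN library 1. It was -0.0074 (without PRAMEL7ΔN library 1) to 0.1034 for *Nr0b1* and -0.0791 (without parental library 2) to 0.3142 for *Rarg*. For PRAMEL7WT over PRAMEL7ΔN it was -0.0217 to 0.1124 for *Nr5a2* and -0.0194 to 0.1578 for *Rxra*, both lowest without PRAMEL7WT library 1, and -0.2565 to 0.0724 (without PRAMEL7ΔN library 1) for *Thra*.

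The main fit did not pair the libraries by replicate number. Deviations from the line means correlated at 0.207 between parental ESCs and PRAMEL7WT. The correlation was -0.249 between parental ESCs and PRAMEL7ΔN and -0.103 between the derived lines. These values do not settle whether the numbers mark pairs. With the replicate block 5, 3 and 2 members and 2729, 2112 and 2181 genes were called, and *Esrra* and *Rara* lost their calls in PRAMEL7WT. With the PRAMEL7ΔN numbers crossed, a pairing chosen after seeing the data, 10, 3 and 5 members and 4435, 3417 and 3642 genes were called.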
